A study of Mus musculus with 2 samples.

Results

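Retinoid handling in the mouse yolk sac was described through 9 genes: the retinol uptake receptor Stra6, the enzymes Rdh10, Dhrs3 and Aldh1a2, the carriers Crabp1 and Crabp2, the degrading enzyme Cyp26a1, and the receptors Rara and Rarb. They were chosen by gene symbol for their role, and all 9 were found among 30970 gene rows. The tissue was yolk sac of E8.75 mouse embryos, dissociated into single cells. All cells shared 1 genotype, Ttr-Cre/+; R26lsl-rtTA-EGFP/+, and there was no treated or mutant group. Ttr, the gene whose promoter names the Cre driver, is a transthyretin gene active in visceral endoderm, so the Cre and the reporter it switches on bear on that lineage. The cells carried 1 of 3 oligonucleotide tags and were sequenced together, and each tag gave 1 matrix of unique molecular identifiers (UMIs, 1 per captured RNA molecule).

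Retinol from the mother reaches cells on the plasma protein RBP4, and STRA6 is a receptor that takes it up. RDH10 oxidises retinol to retinaldehyde, DHRS3 reduces retinaldehyde back to retinol, and ALDH1A2 oxidises retinaldehyde irreversibly to retinoic acid. CRABP1 and CRABP2 bind retinoic acid inside the cell, CYP26A1 oxidises it to inactive products, and RARA and RARB are nuclear receptors that it activates, with Cyp26a1 and Rarb among the classical genes that retinoic acid induces. Mouse yolk sac and its vessels are known to depend on retinoid supply.

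Retinoid receptors are known to bind repeated half-sites in DNA, and such repeats were searched for in RefSeq promoter windows (GRCm38.p6, 250 bases before to 50 after each start). The search was for a direct repeat of a retinoid receptor half-site with 5 bases between its copies, on both strands. A half-site was taken as AGGTCA or as a variant of it, which could be AGTTCA where the middle differs, further GGGTCA where the start differs, and finally GGTTCA where both differ. Of the 9 genes, 7 had a window, and 2 of these, Cyp26a1 and Rarb, held the repeat, against 0.115% of all 27025 genes and 0.0974% of all 32851 windows. The genes were chosen for retinoid roles and these 2 are classical targets of retinoic acid, so the contrast is a description and no independent support. Repeats with 1 or 2 bases between the copies were in 0 of the 7 genes, and in 0.222% and 0.268% of all windows. The matches are shown because they are what these 2 genes share in sequence, 5′ to 3′ along the gene's strand with the half-sites in capitals. For Cyp26a1 the stretch is chr19:37697558-37697797 on the plus strand and ends where the annotated first exon begins. The repeat lies 32 to 16 bases before the RefSeq start and reads along the opposite strand, so the capitals are the reverse complement of the half-site. For Rarb the stretch is only the site and 6 bases on each side, chr14:16575507-16575535 on the minus strand, because a GENCODE transcript model places it inside an exon. It lies 53 to 37 bases before the RefSeq start. In GENCODE M21 the Cyp26a1 gene spans chr19:37697798-37701536 on the plus strand and the Rarb gene chr14:16430839-16819156 on the minus strand. A match of letters does not show that a factor binds there.
Cyp26a1: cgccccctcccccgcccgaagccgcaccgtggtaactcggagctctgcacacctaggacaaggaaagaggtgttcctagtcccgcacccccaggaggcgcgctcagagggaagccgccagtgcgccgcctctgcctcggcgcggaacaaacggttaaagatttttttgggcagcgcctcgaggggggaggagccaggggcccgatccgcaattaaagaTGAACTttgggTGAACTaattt
Rarb: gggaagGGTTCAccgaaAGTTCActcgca

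Of 1817 cells, 1740 passed the limits of 500 detected genes and 10% of UMIs from mitochondrial genes, and were used. The 3 matrices held between 22007477 and 33114758 UMIs, with a median of 45539 to 47786.0 per cell before these limits were applied, and shared 0 barcodes. Cells were put into classes by the share of UMIs from named genes: endoderm at 0.3% or more from Ttr, Apob and Apom, erythroid at 3% or more from 7 globin genes, endothelium at 0.04% or more from Cdh5, Ctla2a and Plvap, and mesoderm at 0.03% or more from Hand1, Vcan and Foxf1. This gave 559 endoderm, 199 mesoderm, 115 endothelium and 629 erythroid cells, with median UMIs per cell of 56338, 34959, 35699 and 47771. A further 188 cells met no limit, and 50 met more than 1 and were dropped. Each class carried its own markers above the other classes: 9 visceral endoderm markers made up 3.02 to 3.84% of endoderm UMIs and at most 0.0938% elsewhere, and all 9 were detected. The marker lists of the 4 classes include the genes that set the class limits, such as Ttr, Apob and Apom among these 9. That order of the classes was therefore largely fixed by the limits and is no independent check of them. The design names 3 embryos, yet each tagged sample held cells of both sexes. Cells with at least 4 Xist UMIs and at most 1 Y-linked UMI numbered 181, 259 and 217 in tagged samples 1, 2 and 3. Those with at least 2 Y-linked UMIs and at most 1 Xist UMI numbered 150, 177 and 344. Whether a tagged sample stands for 1 embryo cannot be told from these files, and every p-value below measures the spread between tagged samples only.

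The retinoid genes fell into class patterns that differed from gene to gene. Rdh10, Crabp2 and Cyp26a1 were highest in endoderm, Crabp1 was highest in mesoderm, Dhrs3 and Rara were spread over endoderm, mesoderm and endothelium with little in erythroid cells, and Stra6, Aldh1a2 and Rarb were scarce in all 4 classes. Levels are given as CPM, the UMIs of a gene per 1000000 UMIs of a class in a tagged sample, and are compared for 1 gene across classes, never between genes. Differences are on the log2 scale from edgeR's quasi-likelihood test on the class sums of 3 tagged samples against 3, with Benjamini-Hochberg adjustment over all genes tested, and a gene was called at an adjusted p below 0.05. Stra6, Aldh1a2 and Rarb did not pass the filter on low counts in any comparison, so the counts below are not counts over all 9 genes.

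**Figure D1:**
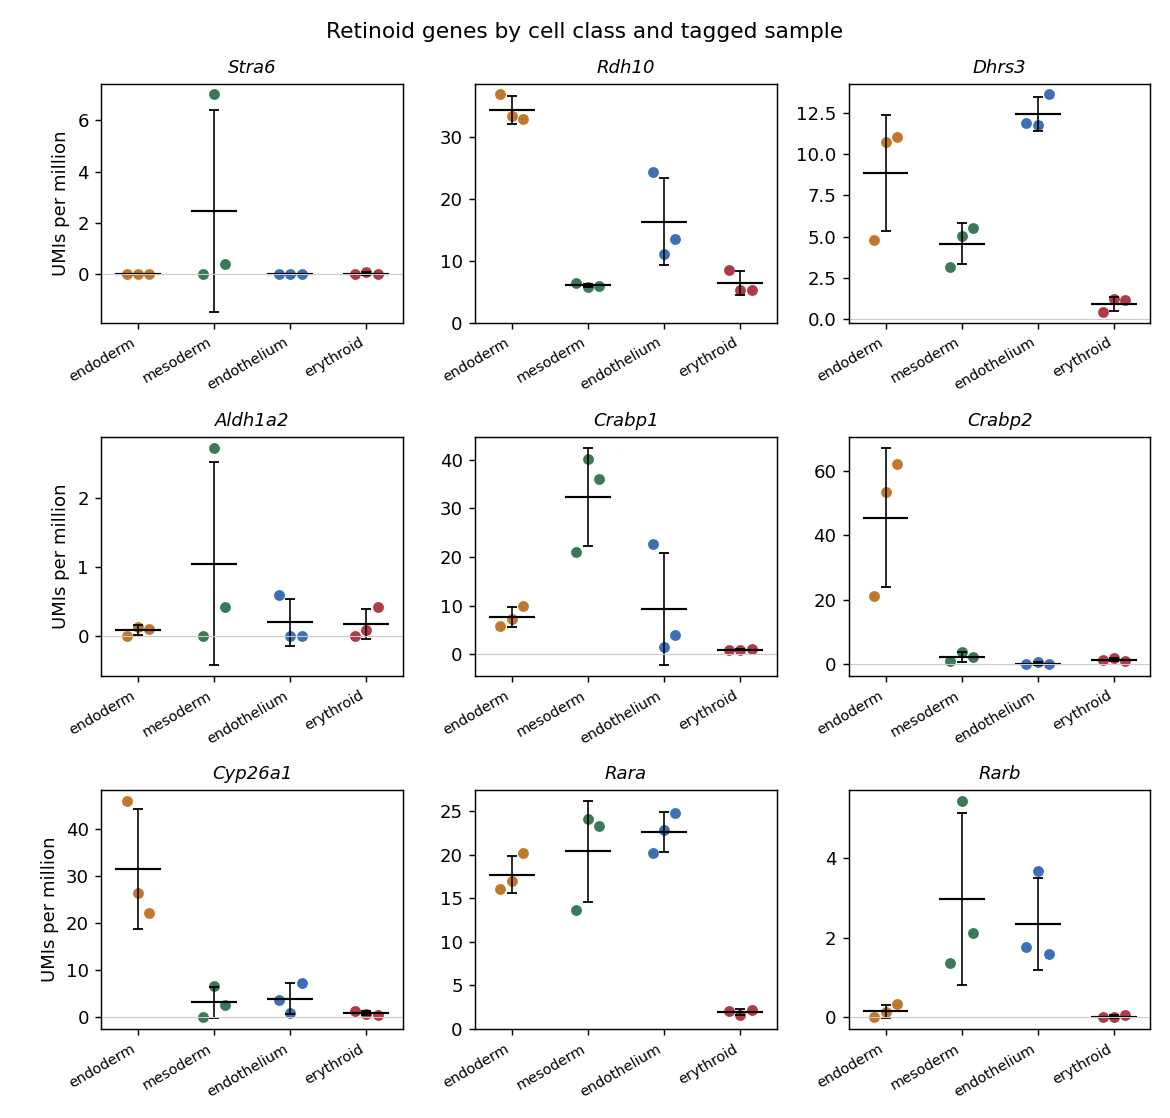
CPM (vertical axis, linear, scaled for each gene) of the 9 retinoid genes in endoderm, mesoderm, endothelium and erythroid cells. Points are tagged samples 1, 2 and 3 from left to right, lines are means and bars are 1 SD (n = 3). Rdh10, Crabp2 and Cyp26a1 stand highest in endoderm and Crabp1 in mesoderm, while Stra6, Aldh1a2 and Rarb stay below 8 CPM in every class sum.

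Against endoderm, 5 of the 6 tested retinoid genes were called in mesoderm, 4 lower and 1 higher. The share of all tested genes called in that comparison was 63.8% of 10997. In endothelium 3 of 6 were called, all lower, beside 60.5% of all genes, and in erythroid cells 6 of 6 were called, all lower, beside 77.9%. Between mesoderm and endothelium 3 of 4 were called, beside 35.4%. Against erythroid cells, 3 of 4 were called in mesoderm, all higher, beside 70.8%, and 3 of 3 in endothelium, all higher, beside 66.0%. The comparisons share class sums, with the same endoderm samples in the first 3. The classes differed in many of their genes, so a call by itself does not set these genes apart, and the sizes and directions are what follow. The median log2 difference of the tested retinoid genes was -1.98 in mesoderm, -0.47 in endothelium and -2.88 in erythroid cells, each minus endoderm. Over all tested genes it was -0.02, -0.05 and -0.05. The medians of the retinoid genes depend on the filter. Crabp2 and Cyp26a1 passed it only in comparisons with endoderm, and Stra6, Aldh1a2 and Rarb in none. Without the filter, 8 of 9 were called in mesoderm minus endoderm, 4 higher and 4 lower, beside 8212 of all 18264 genes.

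**Figure D2:**
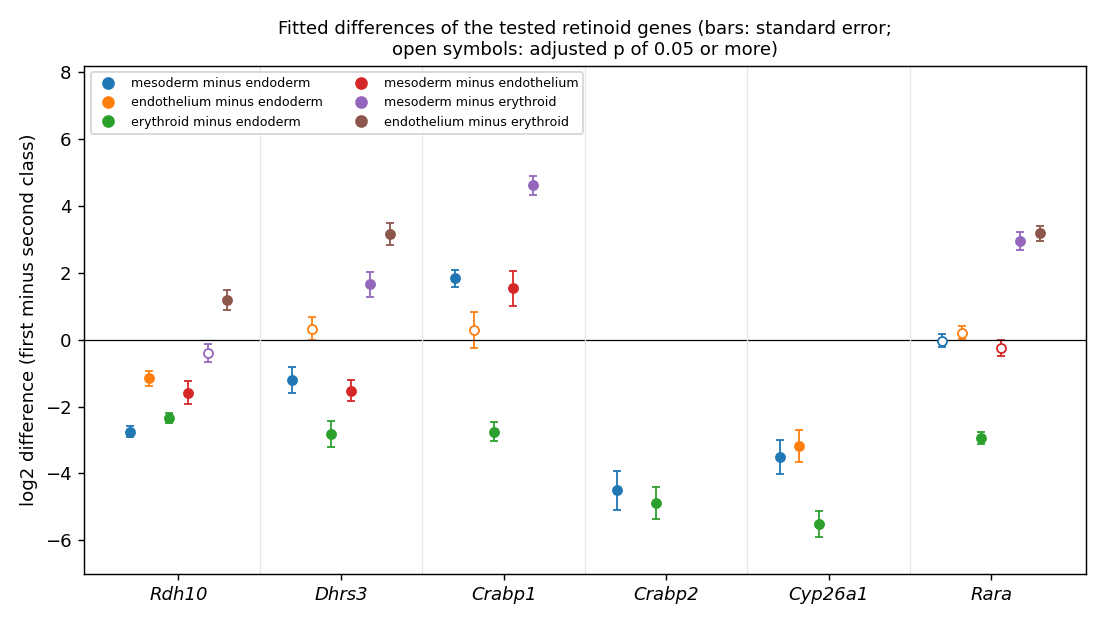
Log2 difference between classes (vertical axis, first minus second class) for the 6 retinoid genes that passed the low-count filter in at least 1 comparison, with the standard error as bars. Filled symbols passed the adjusted p of 0.05, open symbols did not, and Crabp2 in endothelium is left off because it rests on 1 UMI. Crabp2 and Cyp26a1 are lower in each class shown than in endoderm, and Rara lies near 0 except against erythroid cells.

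Uptake came first in the chain, and Stra6 was nearly absent from the 4 classes. Endoderm, endothelium and tagged sample 1 of mesoderm held 0 UMIs of it. A count of 0 in endoderm allows a level of up to 0.0922 CPM, and in endothelium up to 0.699. Mesoderm of tagged sample 2 held 18 UMIs and mesoderm of tagged sample 3 held 1, and erythroid cells held 1 in all. The level in mesoderm was thus that of 1 tagged sample, and 11 of the 18 UMIs there came from 1 cell.

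The Stra6 UMIs of the yolk sac lay mainly outside these classes. In the 1740 cells there were 95, in 25 cells, and 75 of them were in 18 cells that met no class limit. Most of these cells had many UMIs of 7 parietal endoderm markers, Sparc, Lamb1, Lama1, Col4a1, Plat, Srgn and Pth1r, which mark the endoderm that lays down Reichert's membrane outside the yolk sac. In 20 cells these markers made up at least 1% of UMIs, and those 20 cells held 87 of the 95 Stra6 UMIs, at 122 CPM. All 7 markers were detected in them, and Sparc alone stood at 9793 CPM. In 1677 cells with a marker share of at most 0.25% there were 8 Stra6 UMIs, in 36 cells between 0.25 and 0.5% there were 0, and in 7 cells between 0.5 and 1% there were 0. Each of the 13 cells with 3 or more Stra6 UMIs had a share of at least 1.16%. The 1% limit was set after these values had been seen, so this is a description with no test.

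**Figure D3:**
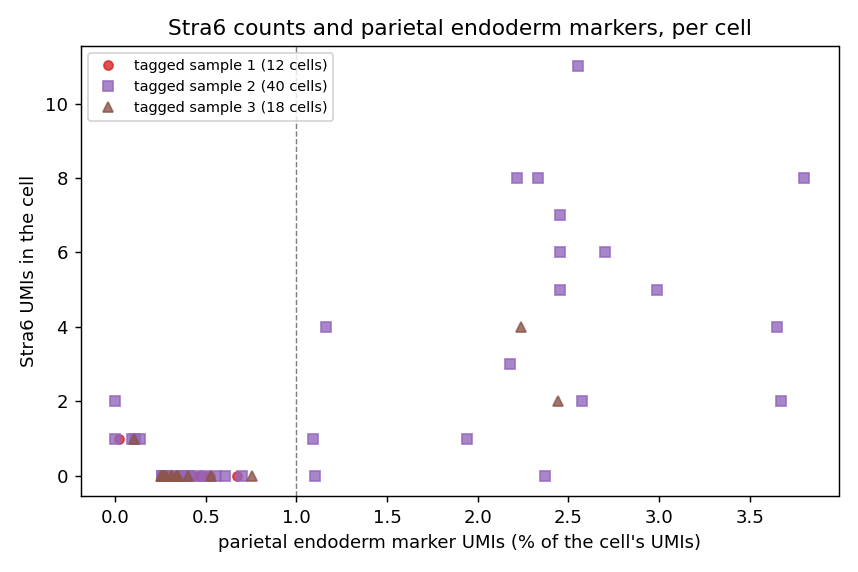
Stra6 UMIs (vertical axis) against the percentage of a cell's UMIs from 7 parietal endoderm markers (horizontal axis), 1 point per cell, for the 70 used cells that had a Stra6 UMI or a share of at least 0.25%. The dashed line is the 1% limit. Counts of 3 or more stand only to its right, and nearly all points there are from tagged sample 2.

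The 20 cells came from tagged sample 2 (18 cells) and tagged sample 3 (2 cells), with 0 from tagged sample 1. Their median depth was 33401 UMIs, below the median of each of the 3 matrices. They held Cyp26a1 as well, at 67.6 CPM, with at least 1 UMI in 17 of the 20 cells and 3 or more in 8. Of the retinoid genes they had 0 UMIs of Aldh1a2, 1 of Crabp1, 1 of Dhrs3, 2 of Crabp2 and 2 of Rarb. Rara stood at 15.5 CPM there, within the range of the mesoderm samples and below that of the endoderm samples. Of these cells 18 met no class limit and 2 were in the mesoderm class, where they held 15 of its 19 Stra6 UMIs and 12 of its 23 Cyp26a1 UMIs. Without such cells the mean Stra6 level of mesoderm was 0.548 in place of 2.48 CPM.

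Rdh10, the first oxidising step, was an endoderm gene with a smaller level in endothelium. Endoderm held 37.0, 33.4 and 32.9 CPM in tagged samples 1, 2 and 3. Endothelium held 24.3, 11 and 13.6, mesoderm 6.37, 5.84 and 5.94, and erythroid cells 8.57, 5.23 and 5.24. No endothelium, mesoderm or erythroid sample reached the lowest endoderm sample, whereas mesoderm and erythroid samples overlapped. The difference from endoderm was -2.75 (SE 0.16) in mesoderm, -2.34 (SE 0.15) in erythroid cells and -1.15 (SE 0.22) in endothelium, with adjusted p of 5.69e-08, 3.67e-08 and 0.000526 from edgeR. Mesoderm minus endothelium was -1.58 (SE 0.33, adjusted p 0.00239), and endothelium exceeded erythroid cells by 1.196 (SE 0.30, adjusted p 0.00394). Mesoderm and erythroid cells were not separated, at -0.39 (SE 0.27, adjusted p 0.208), and that difference changed sign under library total scaling and with doubled class limits. Endothelium of tagged sample 1 was the highest of its class by a wide gap, and the endothelium call against erythroid cells was not made when the sums were thinned to equal depth (0.65, adjusted p 0.164, the highest of 15 alternatives, the lowest being 3.64e-05).

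At the level of cells, 49.7% of endoderm cells had an Rdh10 UMI after each cell had been thinned to 20000 UMIs (exact 95% interval 45.3 to 54.1%). The share was 23.8% (15.2 to 34.3%) in endothelium, 12.6% (8.10 to 18.5%) in mesoderm and 9.74% (7.52 to 12.4%) in erythroid cells. Before thinning the shares were 78.7, 35.7, 18.1 and 23.1%. Thinning left out 48 endoderm, 31 endothelium, 25 mesoderm and 13 erythroid cells with fewer UMIs. The thinned order of endoderm and endothelium is that of the levels. These intervals cover counting error only.

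Dhrs3, which runs the step in the other direction, was highest in endothelium by its mean. Endothelium held 11.9, 11.8 and 13.6 CPM and endoderm 4.81, 10.7 and 11. Mesoderm held 3.18, 5.06 and 5.51, and erythroid cells 0.463, 1.21 and 1.19. Each endothelium sample was above each endoderm sample, but the difference of 0.33 (SE 0.35) was not called (adjusted p 0.435 by edgeR). Endoderm of tagged sample 1 lay within the mesoderm range. Mesoderm was lower than endothelium by a difference of -1.53 (SE 0.31, adjusted p 0.00179). It was lower than endoderm by a difference of -1.202 (SE 0.40, adjusted p 0.0197). That call was lost when tagged sample 2 was left out (-1.08, adjusted p 0.105) and when tagged sample 3 was left out (-1.18, adjusted p 0.0722). Over the 15 alternatives this adjusted p ran from 4.81e-05 to 0.105. Erythroid cells were lower than all 3 other classes, by differences of -2.82 from endoderm, and with mesoderm and endothelium higher than erythroid cells by 1.66 and 3.17 (SE 0.38, 0.37 and 0.32), with adjusted p of 3.09e-05, 0.00181 and 2.63e-06 by edgeR.

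Aldh1a2, the enzyme that makes retinoic acid in most of the embryo at this age, was close to undetected. The 1740 cells held 24 UMIs in 16 cells, with 6 of them in 1 mesoderm cell of tagged sample 2. Endoderm held 3 UMIs, mesoderm 8, endothelium 1 and erythroid cells 8, and the class means ran from 0.0825 to 1.05 CPM. With 1 cell left out, mesoderm of tagged sample 2 fell from 2.72 to 0.395 CPM. The gene did not pass the low-count filter, and no difference between classes was tested for it in the main comparisons. Without the filter, mesoderm minus endoderm was 3.04 (SE 1.08, adjusted p 0.0139 by edgeR), a value that rests on these 8 and 3 UMIs. Of other enzymes that make the same product, Aldh1a1 had 3 UMIs in all 4 classes, and Aldh1a3 had 30 in endoderm, 9 in mesoderm, 2 in endothelium and 60 in erythroid cells. Those 2 genes lie below the level set for naming genes and were picked after their values had been seen.

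Crabp1 had its highest mean in mesoderm. Mesoderm held 20.9, 40.1 and 36.0 CPM, endoderm 5.82, 7.28 and 9.91, and erythroid cells 0.927, 0.934 and 1.01. Every mesoderm sample was above every endoderm sample, and every endoderm sample above every erythroid sample. The difference was 1.84 (SE 0.25, adjusted p 5.46e-05 by edgeR) for mesoderm minus endoderm and -2.75 (SE 0.28, adjusted p 2.89e-06) for erythroid cells minus endoderm. Mesoderm exceeded erythroid cells by 4.62 (SE 0.29, adjusted p 5.62e-08).

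Endothelium did not give 1 answer for Crabp1. Tagged sample 1 held 22.6 CPM, from 38 UMIs in 16 of 36 cells, while tagged samples 2 and 3 held 1.47 and 4.0, from 2 and 5 UMIs. The first value lay within the mesoderm range and the others below the endoderm range. With all samples the difference from endoderm was 0.29 (SE 0.54, adjusted p 0.664), and without tagged sample 1 it reversed to -1.79 with an adjusted p of 0.00521, the lowest of 14 alternatives that ran up to 0.997. Mesoderm minus endothelium was 1.55 (SE 0.52, adjusted p 0.0361). It was 3.68 without tagged sample 1, and the call was lost when tagged sample 2 was left out (0.87, adjusted p 0.256) and when tagged sample 3 was (1.16, adjusted p 0.256). It was also lost with DESeq2 (adjusted p 0.287, the highest of 15 alternatives) and with class limits divided by 2 (adjusted p 0.0658). The 16 endothelium cells with Crabp1 in tagged sample 1 had endothelial markers at 0.180% of UMIs and extraembryonic mesoderm markers at 0.0199%, against 0.157% and 0.0212% in the 20 cells without it. The 2 groups had median depths of 45297 and 38774 UMIs. Contractile markers were at 0.00684% and 0.00815% in those groups, and at 0.000882% and 0.00256% over all endothelium cells of tagged samples 2 and 3. Their part in the result was not tested.

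Within mesoderm, Crabp1 was unevenly spread over cells. Of 199 cells, 109 had 0 UMIs, 62 had 1 or 2, and 28 had 3 or more, with a maximum of 15. The 28 cells came from tagged sample 1 (5), tagged sample 2 (12) and tagged sample 3 (11). In them 5 contractile cell markers made up 0.252% of UMIs, against 0.0194% in the middle group and 0.00981% in the cells with none. Extraembryonic mesoderm markers were at 0.162, 0.205 and 0.178% in the same order, and median depths were 37481, 35911 and 33545 UMIs. Over whole mesoderm samples the contractile share ran from 0.0171 to 0.0830%. Amnion and surface ectoderm markers were at 0.00848, 0.00261 and 0.00281% in that order of groups, and visceral endoderm markers at 0.101, 0.0578 and 0.0616%. The shares are pooled over each group, so they do not show how many of its cells carried contractile transcripts. The part of such cells in the class difference was not tested.

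Crabp2 had its highest mean in endoderm. Endoderm held 21.0, 53.3 and 62.2 CPM, mesoderm 0.910, 3.89 and 2.12, and erythroid cells 1.39, 1.87 and 0.953. Endothelium held 1 UMI in all, in tagged sample 2. Every endoderm sample was above every other sample, and endoderm of tagged sample 1 was the lowest of its class. The difference from endoderm was -4.50 (SE 0.58, adjusted p 3.74e-05 by edgeR) in mesoderm and -4.88 (SE 0.48, adjusted p 1.72e-06) in erythroid cells, and the latter was -4.24 with tagged sample 3 left out. The mesoderm value was -5.41 with doubled class limits. For endothelium the counts give 0.496% of the endoderm level, with an exact 95% counting interval of 0.0125 to 2.77% (adjusted p 1.99e-05). After thinning, 51.5% of endoderm cells had a Crabp2 UMI (47.0 to 55.9%), against 2.30% of mesoderm, 1.95% of erythroid and 0% of 84 endothelium cells (upper limit 4.30%). The highest count in 1 endoderm cell was 25.

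Cyp26a1 was likewise concentrated in endoderm. Endoderm held 45.9, 26.3 and 22.0 CPM, endothelium 3.56, 0.735 and 7.20, mesoderm 0, 6.61 and 2.54, and erythroid cells 1.16, 0.654 and 0.358. The lowest endoderm sample was above the highest sample of the other classes, which overlapped one another. The difference from endoderm was -3.51 (SE 0.51, adjusted p 9.15e-05 by edgeR) in mesoderm, -3.18 (SE 0.47, adjusted p 6.89e-05) in endothelium and -5.52 (SE 0.39, adjusted p 1.08e-07) in erythroid cells. The mesoderm value moved with single samples and cells, to -2.63 without tagged sample 1, -4.88 without tagged sample 2 and -4.53 without the cells rich in parietal endoderm markers. The endothelium value was -4.07 with tagged sample 3 left out, and the erythroid value was -4.88 with thinned sums and -4.72 with doubled class limits. Each of these was still called. The other degrading enzymes of the family, Cyp26b1 and Cyp26c1, had 3 and 1 UMIs over all 4 classes. They lie below the level for naming genes and were picked after their values had been seen.

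Cells with 3 or more Cyp26a1 UMIs were described as Cyp26a1-positive. There were 159, of which 61, 68 and 30 were in tagged samples 1, 2 and 3. Endoderm held 140 of them, 10 met no class limit, 5 met more than 1, 2 were mesoderm, 2 endothelium and 0 of 629 erythroid. The positive share of endoderm cells was 32.2% (exact 95% interval 25.3 to 39.7%), 27.0% (21.2 to 33.4%) and 15.3% (10.2 to 21.6%) in tagged samples 1, 2 and 3. Thinned to 20000 UMIs it was 10.6, 7.39 and 4.46%, in the order of the levels. A UMI of any number was seen in 56.9% of endoderm cells and in 2.86% of erythroid cells, and in 37.2% and 1.14% after thinning. Positive cells were deeper than the rest, with a median of 60709 against 46256 UMIs, and 14 of the 159 were doublet calls by Scrublet. Just below the limit 89 cells had 2 UMIs, 78 of them endoderm, and just inside it 60 cells had 3, 53 of them endoderm. The largest count was 30.

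Genes that went with this count are given as a description, because the count chose the cells. Against all other used cells, the 10 genes with the largest ratio of level were Fst, Pdgfra, Apln, Lama1, Fabp1, Dram1, Bend5, Cited1, Retreg1 and Sgk1, with ratios from 6.93 down to 3.62. Endoderm made up 88.1% of the positive cells and 32.1% of all used cells, so these ratios also hold differences between endoderm and other classes. Of the 10, only Fst, Apln and Pdgfra were also among the genes listed with the largest ratios inside endoderm. Cited1, a transcriptional co-regulator, stood at 1519 against 403 CPM, and was higher in positive cells in each tagged sample. Fst, the activin-binding follistatin, stood at 87.3 against 11.8, and Lama1, a laminin chain of basement membranes, at 80.3 against 18.5. The positive cells of the endoderm class held Fst at only 22.2 CPM, so its level of 87.3 rests largely on the positive cells outside endoderm. In the parietal-marker-rich cells Lama1 is itself one of the markers, and both genes had their highest positive-cell level in tagged sample 2, at 128 for Fst and 126 for Lama1.

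Inside endoderm alone the contrast was smaller and left out the other classes. Endoderm cells with 3 or more Cyp26a1 UMIs held Fst at 22.2 CPM against 3.82 in those with none. The apelin peptide gene Apln stood at 52.9 against 18.6, the receptor gene Pdgfra at 33.8 against 13.6, and Sox17, an endoderm transcription factor, at 29.6 against 15.5. Some genes were lower in the positive cells: Afp (alpha-fetoprotein) stood at 1404 against 2828, Trf (transferrin) at 260 against 426 and Fgg (a fibrinogen chain) at 86.5 against 144. These genes were picked after their values had been seen. The 9 visceral endoderm markers together were at 3.22% of UMIs in the positive cells and 3.86% in those with none, and the 7 parietal markers at 0.114 and 0.0897%.

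The other retinoid genes were also compared by the Cyp26a1 count inside endoderm, with no test. In cells with 0, 1 or 2, and 3 or more Cyp26a1 UMIs, Rdh10 stood at 33.7, 37.8 and 38.9 CPM in tagged sample 1. It stood at 28.3, 40.5 and 34.8 in tagged sample 2 and at 31.7, 32.6 and 36.9 in tagged sample 3, so the last group was above the first in each. Crabp2 stood at 22.3, 21.8 and 19.4 in tagged sample 1, 50.2, 70.7 and 42.8 in tagged sample 2, and 67.9, 59.6 and 52.0 in tagged sample 3. The cells with the most Cyp26a1 thus had the lowest Crabp2 level in each tagged sample. Crabp1 stood at 5.27, 4.88 and 7.06 in tagged sample 1, 6.46, 8.30 and 7.60 in tagged sample 2, and 7.75, 11.5 and 12.5 in tagged sample 3, again with the last group above the first. Dhrs3 and Rara gave no single direction. Dhrs3 went from 4.46 in the first group to 5.89 in the last in tagged sample 1, from 12.9 to 8.52 in tagged sample 2 and from 13.2 to 8.56 in tagged sample 3. Rara went from 13.0 to 17.4, from 16.4 to 18.4 and from 21.9 to 19.1. The 241, 178 and 140 cells had median depths of 53538, 54438 and 63053 UMIs.

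**Figure D4:**
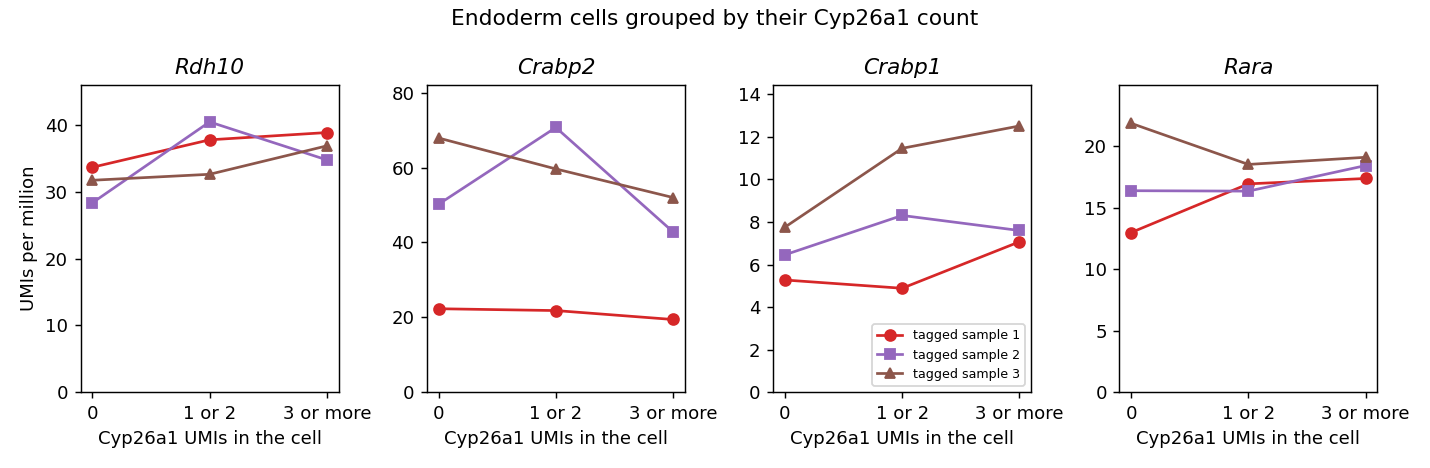
CPM (vertical axes, from 0) of Rdh10, Crabp2, Crabp1 and Rara in endoderm cells with 0, 1 or 2, and 3 or more Cyp26a1 UMIs (horizontal axes), with 1 line per tagged sample. Tagged sample 1 lies below the others for Crabp2 in all 3 groups.

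Rara is a broadly expressed receptor gene. Endoderm held 16, 17 and 20.15 CPM, mesoderm 13.6, 24.1 and 23.3, and endothelium 20.18, 22.8 and 24.8. Erythroid cells held 2.08, 1.59 and 2.20. Mesoderm overlapped both endoderm and endothelium, while each endothelium sample was above each endoderm sample, the closest pair by a narrow gap. No difference among these 3 classes was called. Mesoderm minus endoderm was -0.03 (SE 0.20, adjusted p 0.901 by edgeR), a value whose sign changed under 3 alternatives. Endothelium minus endoderm was 0.22 (SE 0.18, adjusted p 0.323) and mesoderm minus endothelium -0.25 (SE 0.24, adjusted p 0.460). Erythroid cells lay below all 3, by differences of -2.94 (SE 0.18) from endoderm, and with mesoderm and endothelium higher by 2.95 (SE 0.26) and 3.18 (SE 0.23), each with an adjusted p of at most 1.12e-06.

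Rarb, whose repeat is shown above, was rare and not in the class that held most Cyp26a1. The 1740 cells held 46 UMIs in 38 cells. Mesoderm held 1.36, 5.45 and 2.12 CPM (22 UMIs), endothelium 1.78, 3.68 and 1.60 (10 UMIs), endoderm 0, 0.139 and 0.327 (5 UMIs), and erythroid cells 0, 0 and 0.0596 (1 UMI). Every mesoderm and endothelium sample was above every endoderm and erythroid sample, and mesoderm and endothelium overlapped. The gene did not pass the low-count filter, so these differences have no test in the main comparison. The 2 genes with the repeat therefore had different classes with their highest level: endoderm for Cyp26a1 and, at counts this low, mesoderm and endothelium for Rarb. In the 159 Cyp26a1-positive cells there were 2 Rarb UMIs, at 0.194 CPM, against 0.570 CPM in the other used cells. Endoderm cells with 0 Cyp26a1 UMIs also held 2, at 0.153 CPM, so these counts do not set the positive cells apart from other endoderm.

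The surrounding pathway was read from a list of 49 other genes of retinoid transport, storage, oxidation, breakdown, receptors, co-regulators and responsive genes. In mesoderm against endoderm 31 were tested, of which 9 were higher, 14 lower and 8 not called. In endothelium 7 of 28 were higher and 14 lower, and in erythroid cells 5 of 29 were higher and 18 lower. Mesoderm against endothelium gave 7 higher and 6 lower of 24, mesoderm against erythroid cells 13 higher and 5 lower of 27, and endothelium against erythroid cells 8 higher and 4 lower of 23. The shares of all tested genes called in these comparisons were 63.8, 60.5, 77.9, 35.4, 70.8 and 66.0%, in the same order. A call by itself therefore does not set the list apart. Among its tested genes the list had a median log2 difference of -0.27, -0.54 and -1.24 in mesoderm, endothelium and erythroid cells minus endoderm. The median over all tested genes was -0.02, -0.05 and -0.05, and genes that failed the low-count filter enter neither. Of the 49, 18 reached 20 CPM in the mean of at least 1 class, most of which are named here, and 31 did not.

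Of the genes for retinol transport and carotenoid uptake and cleavage, 4 are described here, each with its highest mean in endoderm. Rbp4, which carries retinol in plasma, held 8580.2, 11422 and 10769 CPM in endoderm and between 131 and 246 in the samples of the other classes. It was also counted in 93.0% of thinned erythroid cells, a blood class with 149 ± 12.4 CPM (SD, n = 3), at median depths of 47771 UMIs there and 56338 in endoderm. The thinned share was 95.4% in mesoderm and 96.4% in endothelium, and the part of free RNA in these low levels was not tested. The endocytic receptor Lrp2 stood at 194 ± 28.6 in endoderm and 71.1 ± 9.76 in mesoderm, with at most 5.64 in the means of the other classes. Bco1, which cleaves beta-carotene, stood at 35.1 ± 6.76 in endoderm and 17.9 ± 5.30 in mesoderm, and at most 1.47 elsewhere. Scarb1, a lipoprotein receptor that also takes up carotenoids, stood at 78.3 ± 4.37 in endoderm and 36.9 ± 5.58 in endothelium. Mesoderm was lower than endoderm by -6.07 (SE 0.14) for Rbp4, -1.68 (SE 0.12) for Lrp2, -1.22 (SE 0.22) for Bco1 and -2.68 (SE 0.15) for Scarb1, all called by edgeR.

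Among the enzymes, Rdh11 and Dhrs4 were also highest in endoderm, at 25.7 ± 0.849 and 39.8 ± 13.2 CPM, and both were called lower in mesoderm, endothelium and erythroid cells. Adh5, the widely expressed class of alcohol dehydrogenase, ranged only from 133 ± 8.21 in endothelium to 187 ± 4.66 in endoderm. Fabp5, a fatty acid carrier that can bind retinoic acid, was lowest in endoderm. It stood at 48.8 ± 15.8 in endoderm against 370 ± 181, 323 ± 115 and 429 ± 138 in mesoderm, endothelium and erythroid cells. The 3 differences from endoderm were 2.70 (SE 0.32), 2.63 (SE 0.25) and 3.36 (SE 0.24).

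Receptor and responsive genes differed in the class where each was highest. Rarg, the third receptor gene, held 27.7, 20.6 and 22.0 CPM in mesoderm and 13.1, 12.5 and 16 in endothelium. It was at or below 0.560 in each endoderm and erythroid sample. Mesoderm minus endoderm was 5.79 (SE 0.31) and mesoderm minus endothelium 0.64 (SE 0.23, adjusted p 0.0435 by edgeR). The transcription factor genes Meis1 and Meis2 were highest in endothelium by their means, at 45.2 ± 4.15 and 105 ± 24.1, with mesoderm at 11 ± 3.92 and 91.6 ± 23.5. Nr2f2 was highest in mesoderm, at 42.5 ± 8.22. The Meis2 difference of mesoderm minus endothelium was not called (-0.30, SE 0.19, adjusted p 0.254 by edgeR), but was with a replicate block (-0.32, adjusted p 0.0425). Of the co-regulators, Nrip1 had its highest mean in endothelium (70.5 ± 9.58), which was not separated from erythroid cells (0.17, SE 0.12, adjusted p 0.219 by edgeR). Ncor1 ran from 122 ± 1.10 in endoderm to 182 ± 7.65 in erythroid cells, and the coactivator Ncoa3 from 21.9 ± 1.44 in erythroid cells to 34.8 ± 3.01 in endothelium. The Ncoa3 order depends on the scaling. In the edgeR fit with TMM scaling, mesoderm was called lower than erythroid cells (-0.42, SE 0.15, adjusted p 0.0266). Erythroid cells were not separated from endoderm there (0.19, SE 0.10, adjusted p 0.121).

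**Figure D5:**
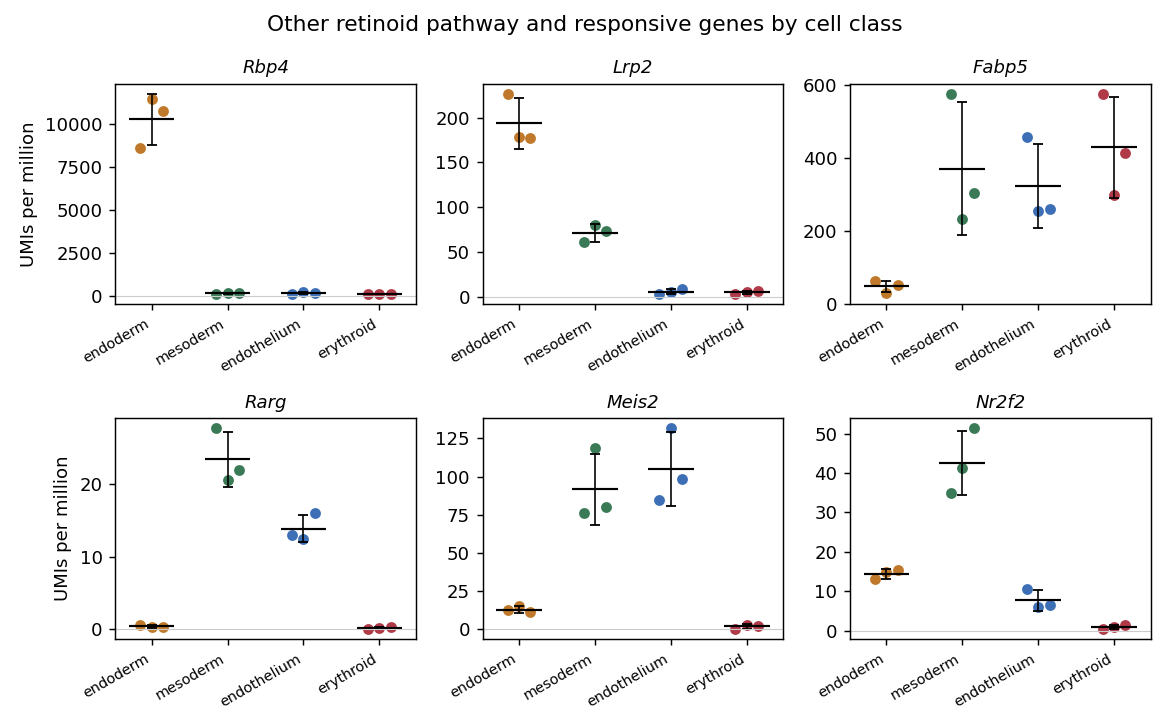
CPM (vertical axes, linear, scaled for each gene) of Rbp4, Lrp2, Fabp5, Rarg, Meis2 and Nr2f2 by class. Points are tagged samples 1, 2 and 3 from left to right, lines are means and bars 1 SD (n = 3). Rbp4 and Lrp2 stand highest in endoderm, Nr2f2 in mesoderm, Rarg and Meis2 in mesoderm and endothelium, and Fabp5 is lowest in endoderm.

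Genes with the most similar pattern were found by Pearson's r of log2 levels over the 12 class sums, among 6523 genes. For Rdh10 they were Ocln (0.96), Me2 (0.95) and Apoe (0.95). For Crabp2 they were Gaa, Mcoln2 and Gcat (0.97 to 0.98), and for Cyp26a1 Tmem106a (0.96), Eif2ak2 and Slc7a8 (both 0.93). For Crabp1 they were Zfp462, Tanc2 and R3hdm2 (0.96 to 0.97), for Dhrs3 Trappc3, Rhog and Tmem176b (0.97 to 0.98), and for Rara Cd151, Ppib and Gnb1 (all 0.99). The 12 sums share tagged samples and 4 classes, so these values describe the class pattern and carry no p.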

How the data were processed

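Single cells of mouse yolk sac were tagged with CellPlex oligonucleotides, pooled and captured in 10x droplets, as the labels' protocols describe. The authors deposited 1 matrix of unnormalized UMI counts for each tag, made with Cell Ranger (6.1.2, per the file headers), with 30970 gene rows and 6 tag rows. GRCm38 (mm10) is the build in the submitters' processing notes. The step that assigned cells to tags: not given in the sources used here. The deposited barcode and feature lists hold names only, and the tag counts were not used. Positions are from GENCODE M21, which 30900 gene identifiers matched, and promoter windows from RefSeq.

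The genes, lists and class limits were chosen with earlier results of these data known. Kept cells had 500 or more detected genes and no more than 10% of UMIs from mitochondrial genes; doublets called by Scrublet in scanpy 1.11.5 (89 calls, kept in the main analysis) were left out in an alternative, and counts were summed per class and tagged sample. The smallest sum held 1250024 UMIs and the largest 16784528, so levels under about 1 CPM (UMIs per 1000000) rest on few molecules. Sums were fitted with edgeR 4.0.16 (filterByExpr, TMM scaling, quasi-likelihood test, two-sided), 2 classes at a time and without a replicate block, and the genes used as class limits were left out of the counts of calls. The scripts were tested on simulated data. Sums with the same number come from the same tagged sample, so the numbers pair them; their deviations from the class means correlated by 0.0069 to 0.16. Named genes were all 9 retinoid genes, listed pathway genes reaching 20 CPM in a class mean, the 3 most similar genes for each retinoid gene reaching 10, and the 10 genes with the largest ratio in Cyp26a1-positive cells (pseudocount 1). Alternatives were DESeq2 1.42.0, other scalings and filters, a replicate block, 1 fit of 4 classes, thinned sums, other class and cell limits, and each tagged sample left out. A few genes that the naming rule covers are not reported here.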

Additional observations from a re-analysis of the deposited data

Results flagged for a closer look

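Cells that met no class limit enter no comparison between classes, yet they held 75 of the 95 Stra6 UMIs of the used cells, in 18 of 188 cells. The limit that a count of 0 allows is 3 counts. Most of these cells were rich in parietal endoderm markers and came from tagged sample 2, as described for Stra6, and whether the same cells would be found in other yolk sac preparations was not tested.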

How the results depend on the processing

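Of the differences of single retinoid genes under each alternative, 418 kept their direction and side of the threshold, 7 kept the direction and lost the call, and 6 changed sign. The sign changes were those of Rara in mesoderm minus endoderm, 0.22 with library total scaling, 0.0701 with doubled class limits and, with 1 tagged sample left out, -0.19 to 0.12 (the latter without tagged sample 1); of Rdh10 in mesoderm minus erythroid cells, 0.0249 with library total scaling and 0.17 with doubled class limits; and of Crabp1 in endothelium minus endoderm, -1.79 without tagged sample 1, in a range up to 0.82 without tagged sample 3. Without the low-count filter the number of retinoid genes called rose to 8 of 9 in mesoderm minus endoderm (4 higher, 4 lower), beside 8212 of all 18264 genes. It rose to 5 of 9 in mesoderm minus endothelium (3 higher, 2 lower), beside 4122 of 16823. In mesoderm minus erythroid cells it was 6 of 9, all higher, beside 8573 of 17630. In endothelium minus erythroid cells it was 7 of 9 (6 higher, 1 lower), beside 7357 of 17121. The added genes were among Stra6, Aldh1a2, Rarb, Crabp1, Crabp2 and Cyp26a1, which entered comparisons that the filter had kept them from. Rarb then differed from endoderm by 3.82 in mesoderm (adjusted p 1.58e-06 by edgeR) and 3.57 in endothelium (0.000464), and with DESeq2 by 4.02 and 3.78 (0.000479 and 0.00143). DESeq2 called 5 of 9 retinoid genes in mesoderm minus erythroid cells, beside 7066 of all 17630 genes. It called 6 of 9 in endothelium minus erythroid cells, beside 6444 of 17121. In the latter comparison 1 fit of all 4 classes called 5 of 6, beside 6646 of 10975. Leaving out 1 tagged sample gave 3 to 5 calls in each of these 2 comparisons, against 3 in the main fit. The highest count in mesoderm minus erythroid cells was 5 of 7, without tagged sample 1 (7386 of 10867 genes). In endothelium minus erythroid cells it was 5 of 5, without tagged sample 2 (5429 of 9362). In these comparisons the added genes were again ones that had not passed the filter. Library total scaling moved the median of all genes to 0.22 in mesoderm minus endoderm and to 0.45 in mesoderm minus erythroid cells, from -0.02 and 0.03. With it, 4580 genes were higher and 2754 lower in mesoderm minus endoderm (3366 and 3652 in the main fit), 1982 and 1435 in mesoderm minus endothelium (1444 and 1773), 5188 and 1630 in mesoderm minus erythroid cells (3661 and 3228), and 4059 and 1771 in endothelium minus erythroid cells (3156 and 2944). The replicate block changed 0 of 29 calls on the retinoid genes and 6 of 162 on the pathway list: the number of retinoid genes called stayed at 5 of 6 in mesoderm minus endoderm, beside 6925 of all 10997 genes. Cyp26a1-positive cells numbered 248 at 2 or more UMIs, 69 at 5 or more and 46 after thinning, and 91 to 129 when a tagged sample was left out. Without cells rich in parietal endoderm markers, a setting added after the data had been seen, 151 remained.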
